A study of Mus musculus with 6 samples.

Results

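Wt1 (Wilms tumour 1) is a zinc finger transcription factor, and 8 genes known from the kidney podocyte were followed with it in E13.5 mouse hearts. They are Nphs1, Kirrel2, Kirrel3, Podxl, Synpo, Basp1, Wtip and Sulf1. The 9 genes were chosen by name from 46983 genes listed, and all 9 were counted in every heart and passed the filter on low counts, as did 17473 genes in all. RNA of whole hearts was sequenced from 3 mutant embryos (TnnT2Cre;Wt1flox, replicates 1, 5 and 10) and 3 embryos labelled wild type (replicates 2, 3 and 5), all at E13.5 and of C57BL/6 x DBA/2 strain. By the methods of the study the controls lacked Cre but carried Wt1 flox/flox, so both groups had floxed alleles. Cre was driven by the cardiac troponin T promoter, which is active in the myocardium, and the study also saw recombination in part of the epicardium. The purpose was to learn what loss of Wt1 from the troponin T lineage does to the heart.

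In podocytes, the cells that wrap the filtration capillaries, Wt1 stays on for life and maintains genes of the slit diaphragm, the cell junction that acts as the filter. Nephrin (Nphs1) and the Neph proteins of the Kirrel family are immunoglobulin-type adhesion molecules of that junction. In the embryonic heart Wt1 is best known from the epicardium, the outer mesothelial layer, and the study asked what it does in cardiomyocytes.

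In the mutant hearts Nphs1 was 10.4-fold lower and Kirrel2, its neighbour in the genome, was 8.88-fold lower than in the wild type hearts, and in neither gene did the groups overlap. Wt1 mRNA itself overlapped between the groups, as did the other 6 genes in CPM. No gene passed an adjusted p of 0.05 in edgeR's quasi-likelihood test (0 of 17473 genes, 0%), so 0 of the 9 passed. At an unadjusted p under 0.05, 1002 genes stood out (5.73%), 453 of them lower in the mutant (2.59%), among them Nphs1 and Kirrel2. DESeq2 called 132 of 20013 genes (0.66%) at an adjusted p under 0.05, 55 of them lower (0.275%), and 2 of the 9 genes were among these, again Nphs1 and Kirrel2. Both genes were known from earlier results of these data before they were described here.

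Nphs1 and Kirrel2 lie head to head on chromosome 7 of GRCm38, and their annotated starts (GENCODE M21) are 625 bp apart. Nphs1 (ENSMUSG00000006649) runs on the plus strand from 30458315 to 30487223. Kirrel2 (ENSMUSG00000036915) runs on the minus strand from 30447534 to 30457690. The sequences around their RefSeq starts (GRCm38.p6) are shown because both genes were lower together. Each window has 250 bases before and 50 after the start. Capitals mark GNGTGGGNG, a form of the G-rich element that Wt1 and the Egr factors bind.
Nphs1, chr7:30459808-30460107, plus strand: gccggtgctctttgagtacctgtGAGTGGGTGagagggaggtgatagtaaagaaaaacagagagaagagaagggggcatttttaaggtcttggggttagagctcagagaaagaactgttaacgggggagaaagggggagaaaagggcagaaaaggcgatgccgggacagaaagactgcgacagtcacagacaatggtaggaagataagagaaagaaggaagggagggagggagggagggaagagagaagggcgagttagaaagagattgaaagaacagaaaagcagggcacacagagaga
Kirrel2, chr7:30457466-30457765, minus strand: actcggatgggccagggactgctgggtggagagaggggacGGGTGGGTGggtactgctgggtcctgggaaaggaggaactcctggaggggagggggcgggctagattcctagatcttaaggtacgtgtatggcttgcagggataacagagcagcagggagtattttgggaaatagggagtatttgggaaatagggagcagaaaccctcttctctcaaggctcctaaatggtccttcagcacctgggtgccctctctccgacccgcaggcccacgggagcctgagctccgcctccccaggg

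Each window holds 1 match to GNGTGGGNG, on the strand of its gene. Both strands were searched in 32851 RefSeq promoter windows of the same length, and 14.3% held a match. The stricter GCGTGGGNG, whose matches are also matches to the former, stands in neither window and in 1.9% of all windows. The Nphs1 window lies within the gene as GENCODE annotates it, since the start in RefSeq is further downstream. The Kirrel2 window ends at 30457765. Most of the stretch between the GENCODE starts of the pair, 30457690 to 30458315, thus lies in neither window. GC content was 49.7% in the Nphs1 window and 59.7% in the Kirrel2 window. RefSeq windows were at hand for 4 of the 9 genes, and those of Basp1 and Wtip held no match to either motif. A match describes the letters only and was not tested for binding.

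Values are given below in the order wild type hearts 2, 3, 5, then mutant hearts 1, 5, 10. Fold changes are log2 values of mutant over wild type from edgeR, with the standard error and 95% interval. CPM scales counts to the TMM-normalized library size. FPKM was deposited by the authors and divides each count by the library total and by 1 length per gene.

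Nphs1, which encodes nephrin, had 64, 54 and 14 counts in the wild type hearts and 8, 3 and 1 in the mutants. The lowest wild type heart was thus above the highest mutant heart, though by few counts. It averaged 0.798 ± 0.427 CPM in the wild type group and 0.077 ± 0.0692 CPM in the mutant group (SD, n = 3 each). This was a log2 fold change of −3.34 (standard error 0.73, interval −5.01 to −1.66, edgeR adjusted p = 0.363). It ranked 12th from the lowest log2 fold change and 80th by p among the genes tested. DESeq2 gave −3.38 (adjusted p = 0.00549).

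Kirrel2, which encodes Neph3, had 103, 84 and 29 counts in the wild type hearts and 6, 11 and 6 in the mutants. Again every mutant heart was below every wild type heart. It averaged 1.32 ± 0.598 CPM in the wild type group and 0.148 ± 0.0534 CPM in the mutant group (SD, n = 3 each). The fold change was thus −3.13 on the log2 scale (standard error 0.50, interval −4.29 to −1.97, edgeR adjusted p = 0.154). Only 19 of the genes tested (0.109%) had a log2 fold change this low or lower. DESeq2 gave −3.16 (adjusted p = 3.41e-05).

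Wild type heart 5 had the smallest library and the lowest Nphs1 and Kirrel2 of its group. Without it the log2 fold change was −3.45 for Kirrel2 (edgeR adjusted p = 0.0263, with 44 of 17814 genes called, 0.247%) and −3.71 for Nphs1 (adjusted p = 0.0809). With each heart left out in turn, DESeq2 kept Kirrel2 under an adjusted p of 0.05 in 6 of 6 fits. It kept Nphs1 only in the fits without wild type heart 5 (adjusted p = 0.000401) or without mutant heart 1 (adjusted p = 0.00451). The 4 other fits gave Nphs1 an adjusted p of 0.234 without wild type heart 2, 0.109 without wild type heart 3, and 0.114 without mutant heart 5 or mutant heart 10. The edgeR log2 fold change of Nphs1 ranged from −4.29 to −2.90 over its own 6 such fits.

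In CPM the groups did not overlap for 2 of the 9 genes, beside 11.2% of all genes tested, and were lower in the mutant without overlap for 4.59%. With 3 hearts against 3, an exact permutation test of 1 gene cannot go below p = 0.1, and both genes were at that limit. Samples were whole hearts, so fewer cells with a transcript and less of it per cell cannot be told apart. The labels give 1 heart for each library. The edgeR and DESeq2 tests set each difference against the spread between these hearts, estimated with information from the other genes.

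**Figure D1:**
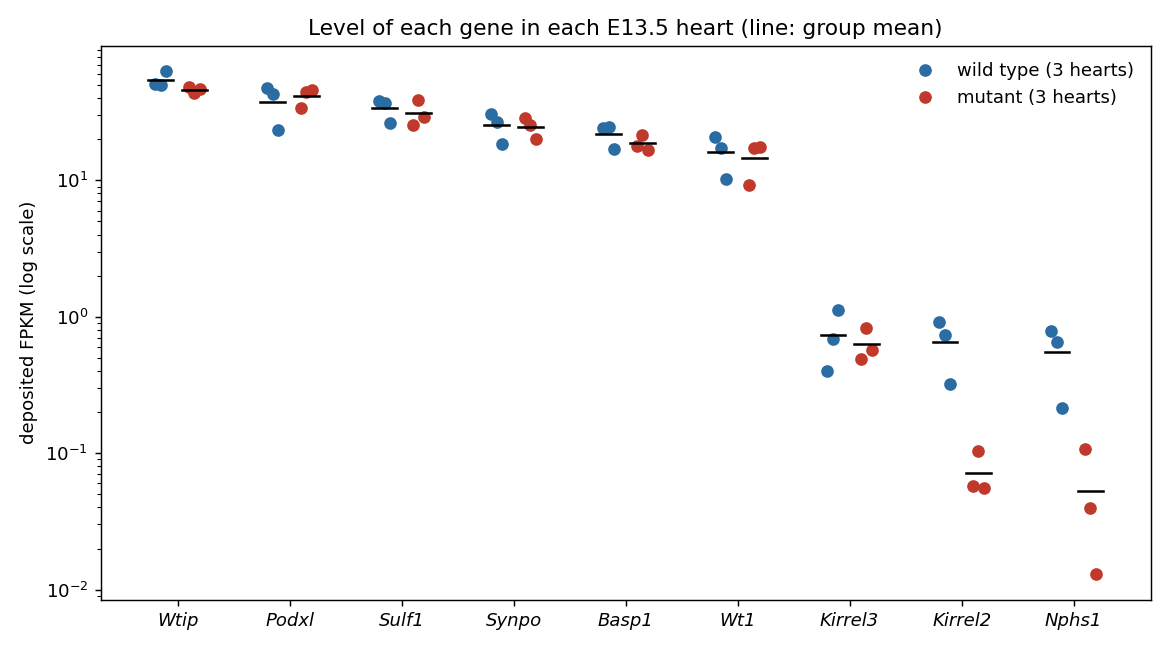
Deposited FPKM of each of the 9 genes (log axis) in the 3 wild type (blue) and 3 mutant (red) hearts, with a line at each group mean, ordered by mean level. Nphs1 and Kirrel2 in the mutants, from 0.0129 to 0.107, lie below all their wild type values, which start at 0.216. The groups of the other 7 genes overlap except for Wtip, whose mutants reach 48.0 and whose wild type hearts start at 50.1.

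Wt1 (ENSMUSG00000016458) is encoded on the plus strand of chromosome 2 between 105126529 and 105173616. Its counts were 2251, 1891 and 879 in the wild type hearts and 921, 1746 and 1796 in the mutants. One heart of each group was low and the other hearts were high, so the groups overlapped fully. Wt1 averaged 30.9 ± 10.1 CPM in the wild type group and 28.9 ± 9.76 CPM in the mutant group (SD, n = 3 each). Its log2 fold change of −0.10 (standard error 0.31, interval −0.81 to 0.61, adjusted p = 0.99) was well within its error. Counts are summed over the whole gene, so any transcript that lacks the floxed part would still be counted. The Wt1 count therefore does not check the labels. The sign turned when wild type heart 2 (0.13) or mutant heart 1 (0.16) was left out.

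The summed FPKM of 16 epicardial markers was 176 to 292 in wild type and 207 to 303 in mutant hearts. With this sum as a covariate, chosen after the values were seen, the log2 fold change of Wt1 was −0.37 (standard error 0.13, edgeR adjusted p = 0.682). Of the 16 markers 11 were higher and 5 lower in the mutant. Their median log2 fold change was 0.33, against −0.001 over all genes tested. At an unadjusted p under 0.05, 6 were higher (Upk1b, Msln, Krt8, Krt18, Aldh1a1 and Gpm6a) and 2 lower (Tcf21 and Muc16), beside 3.14% and 2.59% of all genes tested. DESeq2 called 3 of the 16 (beside 0.66% of all genes in its test), Krt8 (adjusted p = 0.000253), Aldh1a1 (adjusted p = 0.0415) and Tcf21 (adjusted p = 1.66e-07). Their part in the level of Wt1 was not tested beyond this covariate. Wt1os, an RNA read from the opposite strand whose start is 19 bp from that of Wt1, had 118, 147 and 69 counts in wild type and 102, 141 and 150 in mutant hearts. The groups of Wt1os overlapped (log2 fold change 0.29, standard error 0.27). No exon of another gene overlaps those of Wt1.

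Nphs1 and Kirrel2 were low in mutant hearts with high as well as with low Wt1. Wild type heart 5 and mutant heart 1 had nearly the same Wt1 level, 20.0 and 17.7 CPM, but 29 and 6 counts of Kirrel2. For Nphs1 the gap between these hearts was small, with 14 and 8 counts. Per 1000 counts of Wt1, Kirrel2 had 45.8, 44.4 and 33.0 counts in the wild type hearts and 6.51, 6.30 and 3.34 in the mutants. Nphs1 had 28.4, 28.6 and 15.9 in the wild type hearts and 8.69, 1.72 and 0.557 in the mutants. Neither ratio overlapped between the groups, and ratios to Wt1 that did not overlap, with the mutant lower, were found in 0.63% of all genes tested. For CPM itself that share was 4.59%. Since Wt1 overlapped between the groups, the ratios largely repeat the differences in Kirrel2 and Nphs1 and are no separate support. With the Wt1 level as a covariate the log2 fold change was −2.94 for Kirrel2 (edgeR adjusted p = 0.0864) and −3.24 for Nphs1 (adjusted p = 0.32). These ratios and covariates were chosen after the values were seen. Any Wt1 transcripts that lack the floxed part would still be counted, so neither the ratio nor the covariate is a measure of intact Wt1. Whether such transcripts were present was not tested, since only counts per gene were used.

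**Figure D2:**
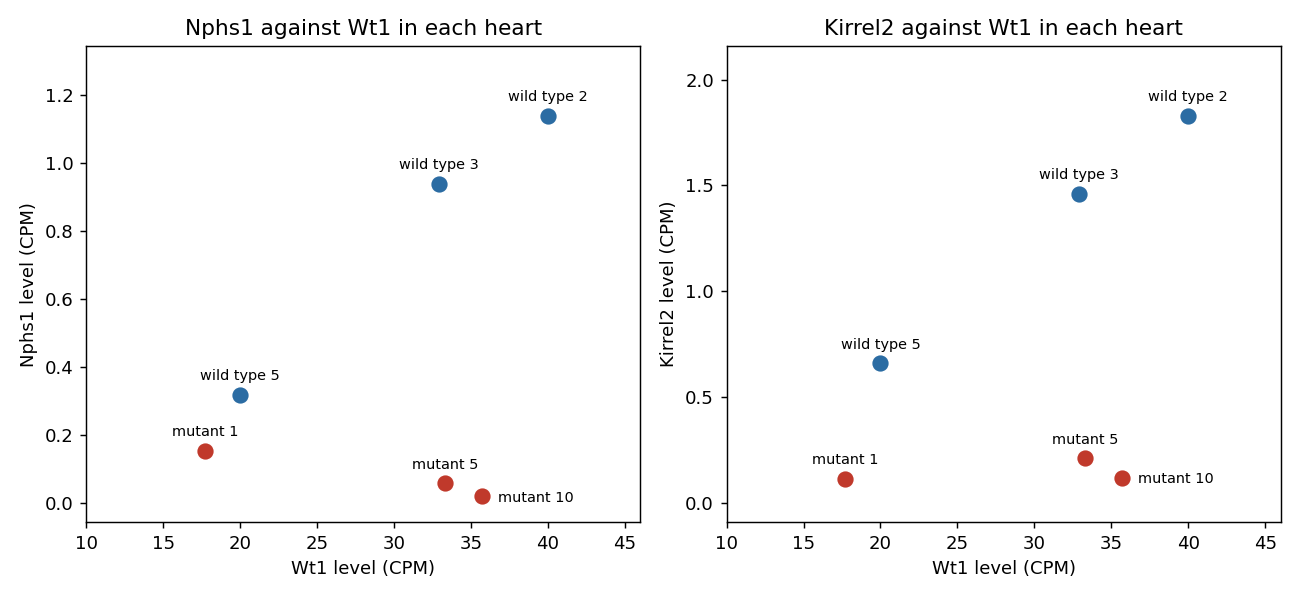
Level of Nphs1 (left) and Kirrel2 (right) against that of Wt1, all in CPM, with 1 point for each wild type (blue) and mutant (red) heart. Mutant hearts 5 and 10, with 33.3 and 35.7 CPM of Wt1, lie near the bottom beside wild type heart 3 with 32.9 CPM of Wt1 but 1.46 CPM of Kirrel2.

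Set against the epicardial markers, both genes were lower in every mutant heart. Of these 16 markers 11 were themselves higher in the mutant, so their sum is not a fixed measure of epicardium. Per 1000 CPM of the summed markers, Kirrel2 had 2.80, 2.68 and 1.85 CPM in wild type and 0.260, 0.350 and 0.160 CPM in mutant hearts. Nphs1 had 1.74, 1.72 and 0.891 CPM in wild type and 0.347, 0.0955 and 0.0266 CPM in mutant hearts. Of all genes tested 2.7% had such a ratio without overlap and lower in the mutant. These ratios too largely repeat the differences in both genes and are no separate support. With the summed markers as a covariate the log2 fold change was −3.31 for Kirrel2 (edgeR adjusted p = 0.0858) and −3.35 for Nphs1 (adjusted p = 0.335).

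Nephron markers were partly absent. Of 10, 4 had 3 counts or fewer in every heart. Umod, a marker of the kidney tubule, was at 0 in all 6 hearts. The 4 that passed the filter were Six2, Wnt9b, Cubn and Cdh16, and Wnt9b, a Wnt ligand, had the most, with 219 to 720 counts. The summed FPKM of the nephron markers was 2.78 to 5.88 in wild type and 4.28 to 5.24 in mutant hearts, and the member with the smallest p was Cdh16. Of 7 gonad markers, whose tissue also uses Wt1, 6 were tested and 0 had an unadjusted p under 0.05, with summed FPKM of 3.73 to 5.08 and 3.81 to 4.50.

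Other markers moved with single hearts or groups. Hepatocyte markers summed to 870 FPKM in wild type heart 3 and 1.65 to 23.3 FPKM in the other 5 hearts. Without that heart the log2 fold change was −3.05 for Kirrel2 and −3.20 for Nphs1. Macrophage markers summed to 26.0 to 29.8 FPKM in wild type and 41.0 to 45.3 FPKM in mutant hearts, and 5 of 6 were higher at an unadjusted p under 0.05, beside 3.14% of all genes tested. DESeq2 called 1 of them, C1qa (adjusted p = 0.000313), beside 0.66% of all genes in its test. Lung and foregut markers were highest in wild type heart 5 (7.07 FPKM) and mutant heart 5 (5.59 FPKM). The part of these cells in the results was not tested. Cardiomyocyte markers, at 25400 to 27100 FPKM in sum, overlapped between the groups.

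The genes around the pair were examined within 100 kb on either side. Of 14 genes there 10 were tested, and the 8 beside Nphs1 and Kirrel2 had log2 fold changes from −0.42 (Nfkbid) to 0.48 (Tyrobp), with a median of −0.07. Aplp1, which encodes a relative of the amyloid precursor protein and is the gene next to Kirrel2, was at −0.04 (standard error 0.22). Hspb6, which encodes a small heat shock protein, was the one neighbour with an unadjusted p under 0.05 (0.46, standard error 0.15, edgeR adjusted p = 0.709). Nphs1os is antisense to Nphs1 and shares 9.02% of its exon bases, but it had 0 counts in all 6 hearts. A pseudogene on the opposite strand, Rps12-ps4, shares 2.76% of the Nphs1 exon bases and was not counted. Prodh2, the next gene beyond Nphs1, was not tested and had 121 counts in wild type heart 3, the heart with the hepatocyte markers, and at most 5 elsewhere.

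**Figure D3:**
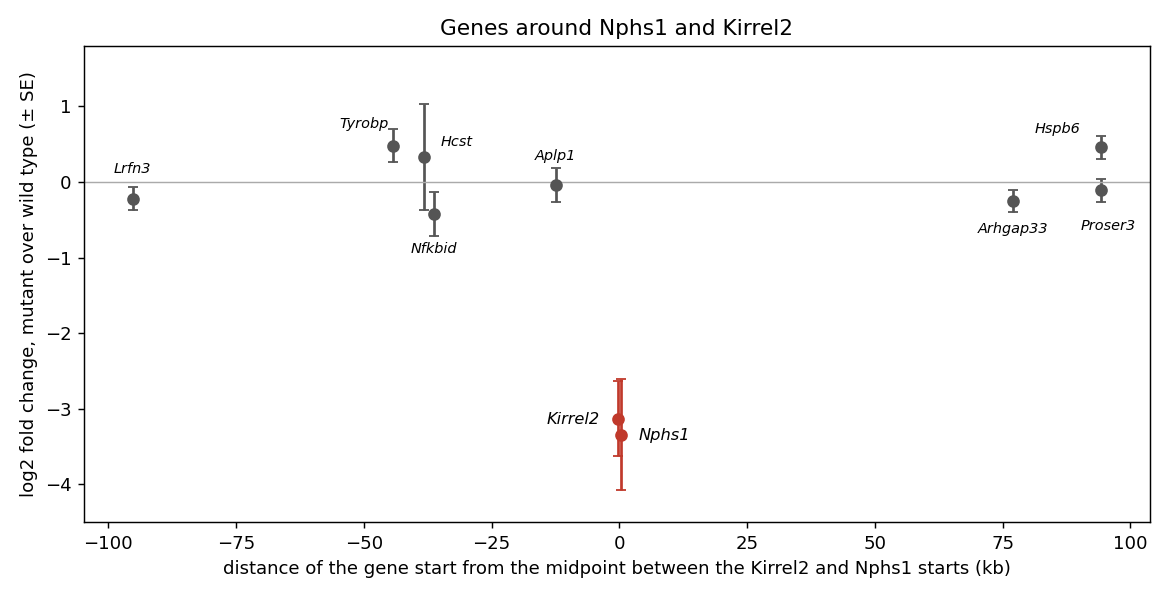
Log2 fold change of mutant over wild type (point) ± standard error (bar) of the 10 genes tested around Nphs1 and Kirrel2, against the distance of each gene start from the midpoint between the starts of the pair in kb. The pair (red) lies at −3.34 and −3.13, whereas the 8 neighbours (grey) lie between −0.42 and 0.48.

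Kirrel3, which encodes Neph2, is the other member of the Neph family among the 9 genes. It lies on the plus strand of chromosome 9 from 34485894 to 35036716, and had 62, 108 and 138 counts in wild type and 70, 120 and 84 in mutant hearts. The groups overlapped, and the log2 fold change was −0.20 (standard error 0.40, interval −1.11 to 0.72, adjusted p = 0.988). Its sign turned without wild type heart 5 (0.25), which had the highest Kirrel3 level of the 6 hearts. Kirrel, which encodes Neph1 and had the most counts of the 3, averaged 93.4 ± 26.6 CPM in the wild type group and 91.5 ± 5.95 CPM in the mutant group (SD, n = 3 each). Its log2 fold change was −0.03 (standard error 0.20). Per 1000 counts of Kirrel there were 15.6, 14.9 and 10.2 counts of Kirrel2 in the wild type hearts and 1.36, 2.22 and 1.25 in the mutants. This ratio was lower in every mutant heart, at the limit of the exact permutation test (p = 0.1, two-sided). Kirrel itself differed little, so the ratio largely repeats the difference in Kirrel2. Its share over all genes was not computed.

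Podxl encodes podocalyxin, a sialomucin that keeps podocyte foot processes apart and also coats mesothelium and endothelium. It lies on the minus strand of chromosome 6 from 31519488 to 31563981. Its FPKM was 47.1, 42.8 and 23.4 in wild type and 33.8, 44.5 and 46.2 in mutant hearts. The groups overlapped, with a log2 fold change of 0.17 (standard error 0.25, interval −0.40 to 0.75, adjusted p = 0.985), which became −0.07 without wild type heart 5. Podxl was the one of the 8 genes whose ratio to Wt1 was higher in every mutant heart. It had 3.32, 3.65 and 3.37 counts for each Wt1 count in wild type and 5.37, 3.81 and 3.91 in mutant hearts. Of all genes tested 1.98% had such a ratio. Per 1000 CPM of the summed epicardial markers Podxl overlapped, with 203, 220 and 189 CPM in wild type and 214, 212 and 187 CPM in mutant hearts. Its log2 fold change was 0.0016 with these markers as a covariate.

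Synpo encodes synaptopodin, an actin-associated protein of podocyte foot processes and dendritic spines, and lies on chromosome 18. Its FPKM was 30.6, 26.9 and 18.4 in wild type and 28.6, 25.4 and 20.2 in mutant hearts. The groups had nearly the same mean, and the log2 fold change was −0.01 (standard error 0.19, interval −0.43 to 0.42, adjusted p = 0.999). The sign of so small a value turned in several of the other fits.

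Basp1 and Wtip encode proteins that bind Wt1. Basp1, a corepressor, lies on the minus strand of chromosome 15 from 25363277 to 25413764. Its FPKM was 24.3, 24.5 and 17.0 in wild type and 17.8, 21.3 and 16.8 in mutant hearts, so the groups overlapped. Basp1 had a log2 fold change of −0.20 (standard error 0.16, interval −0.56 to 0.15, adjusted p = 0.985). Wtip, a LIM domain protein of cell junctions, lies on the minus strand of chromosome 7 from 34109543 to 34133268. Its FPKM was 50.4, 50.1 and 63.1 in wild type and 48.0, 43.3 and 47.0 in mutant hearts. In FPKM every mutant heart was below every wild type heart, whereas in CPM mutant heart 10 (49.1) was above wild type heart 3 (48.6). Wtip had a log2 fold change of −0.21 (standard error 0.13, interval −0.51 to 0.08, adjusted p = 0.956).

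Sulf1, an extracellular enzyme that removes 6-O-sulfate from heparan sulfate, lies on the plus strand of chromosome 1 from 12692277 to 12861192. Its FPKM was 38.4, 37.0 and 26.2 in wild type and 25.6, 38.6 and 28.9 in mutant hearts. The groups overlapped, with a log2 fold change of −0.10 (standard error 0.19, interval −0.53 to 0.34, adjusted p = 0.987). For these 5 genes and for Kirrel3 no change was called, and the data do not tell apart values within the interval given. With 3 hearts a group this is not evidence that they did not change.

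By level per length, the 9 genes formed 2 tiers. Mean FPKM over the 6 hearts was 50.3 for Wtip, 39.6 for Podxl, 32.5 for Sulf1, 25.0 for Synpo, 20.3 for Basp1 and 15.4 for Wt1. It was 0.682 for Kirrel3, 0.362 for Kirrel2 and 0.303 for Nphs1. The gap in the wild type hearts lay between Wt1 (lowest 10.2) and Kirrel3 (highest 1.12). Within each tier neighbours in this order overlapped in the wild type hearts, except Wtip and Podxl. Wt1 was above 75.8% of all detected genes in mean FPKM, and Nphs1 above 40.1%. The lengths behind FPKM are shorter than the annotated exons, 1942 against 6195 bases for Wt1 and 1464 against 6620 for Nphs1. Per kb of all annotated exons and per library total, scaled as FPKM is, the means were 4.82 for Wt1, 0.188 for Kirrel2 and 0.0670 for Nphs1, and Basp1 moved ahead of Sulf1 and Synpo.

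Of 18 relatives of the 9 genes, by sequence or by kind of protein, 17 were tested, and 11 were higher and 6 lower in the mutant. Their log2 fold changes ran from −0.24 to 1.16, with a median of 0.10. Egr1, an immediate early factor with zinc fingers like those of Wt1, averaged 12.5 ± 1.63 CPM in the wild type group and 19.1 ± 3.02 CPM in the mutant group (SD, n = 3 each). The groups of Egr1 did not overlap, as for 6.61% of all genes tested in that direction, and it was at 0.61 on the log2 scale (standard error 0.15, edgeR adjusted p = 0.488). Egr2 was at 1.16 (standard error 0.46, edgeR adjusted p = 0.838), and its groups overlapped. Egr1 and Egr2 were the 2 relatives with an unadjusted p under 0.05, and 3.14% of all genes tested were higher at that threshold. Egr3 was at 0.16, and Egr4 was too low to test. The sialomucins Podxl2 and Cd34 were at −0.24 and 0.14, and the synaptopodin relatives Synpo2 and Synpo2l at −0.06 and 0.20. Gap43, Marcks and Marcksl1, membrane proteins of the kind of Basp1, were at 0.11, −0.02 and −0.08. The LIM proteins Ajuba, Limd1, Lpp, Trip6 and Zyx were at 0.02, 0.16, 0.35, −0.02 and 0.07. Sulf2, which has the same enzyme activity as Sulf1, was at 0.10 (standard error 0.15).

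**Figure D4:**
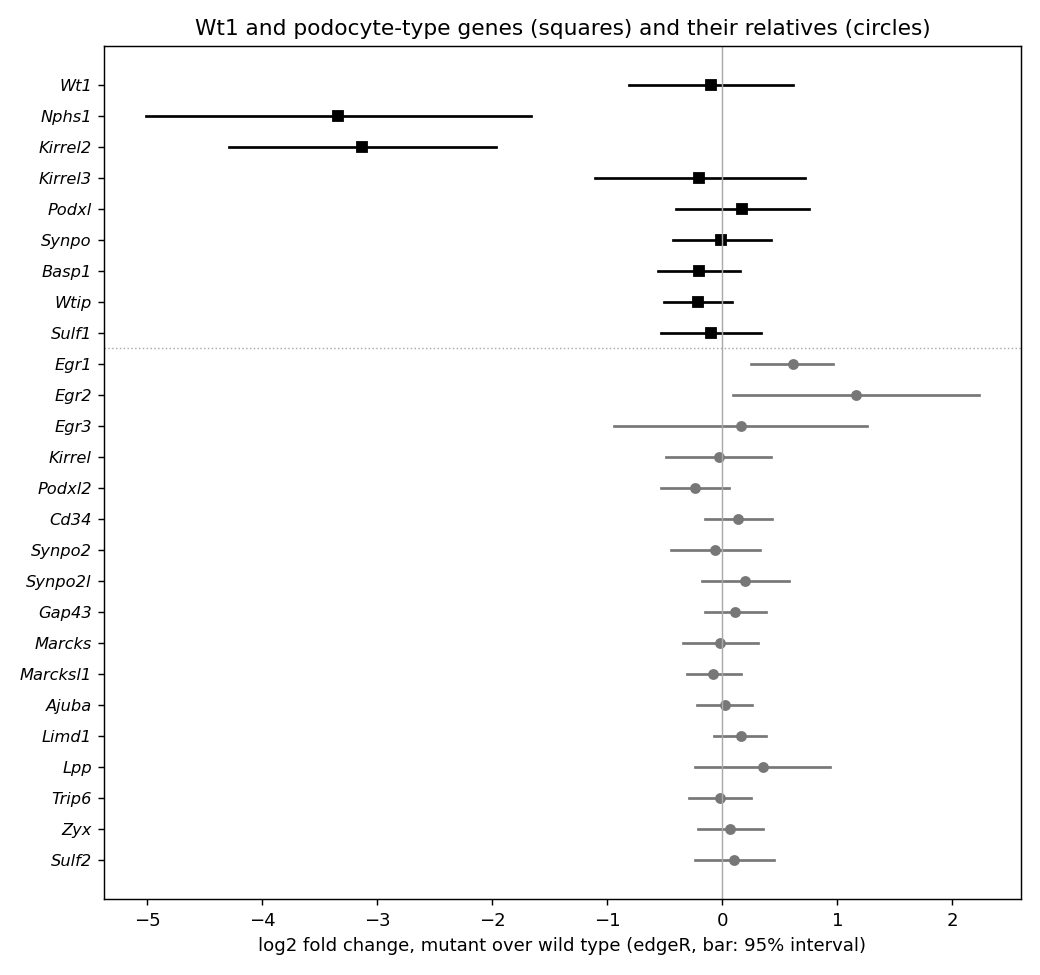
Log2 fold change of mutant over wild type with its 95% interval from edgeR for the 9 genes (black squares) and the 17 relatives tested (grey circles). The intervals of Nphs1 and Kirrel2 have their upper ends at −1.66 and −1.97, and no other interval reaches below −1.11.

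Of 41 other podocyte genes 39 were tested, of which 25 were higher and 14 lower in the mutant (median log2 fold change 0.06). At an unadjusted p under 0.05 there were 3 of them, beside 5.73% of all genes tested. Pdpn, which encodes podoplanin, a mucin of podocytes and mesothelium, was higher (0.28, standard error 0.11, edgeR adjusted p = 0.838). Sema3g, a secreted semaphorin, was lower (−0.82, standard error 0.23, edgeR adjusted p = 0.578). Of all genes tested 3.14% were higher and 2.59% lower at that threshold. Tcf21, a transcription factor of podocytes that also marks fibroblast progenitors of the epicardium, was at 52.8, 43.4 and 57.6 CPM in wild type and 28.0, 22.8 and 20.8 CPM in the mutants. Tcf21 had a log2 fold change of −1.10 (standard error 0.15, edgeR adjusted p = 0.113). It was the one gene of this list that DESeq2 called (adjusted p = 1.66e-07), beside 0.66% of all genes in its test.

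Of 40 genes described as Wt1 targets in other settings 33 were tested, with 17 higher, 16 lower and a median log2 fold change of 0.02. The 4 with an unadjusted p under 0.05 went in both directions, beside 2.59% lower and 3.14% higher over all genes tested. Gas1, a membrane protein with a role in nephron progenitors, was at −0.45 (standard error 0.12) and Snai1, a repressor of E-cadherin, at −0.56 (standard error 0.21). Spry1, an inhibitor of receptor tyrosine kinase signalling, was at 0.35 (standard error 0.11) and the taurine transporter Slc6a6 at 0.52 (standard error 0.14). Their edgeR adjusted p values lay between 0.547 and 0.821, and DESeq2 called 0 of the 33, beside 0.66% of all genes in its test. Of 17 genes for partners of Wt1, Wt1os included, 8 were higher and 9 lower, from −0.21 to 0.29, and 0 had an unadjusted p under 0.05. Htra2, a protease that cleaves Wt1, had the smallest p of that list (−0.21, standard error 0.13, edgeR adjusted p = 0.957).

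The genes whose profile over the 6 hearts was most like that of Wt1 were found by Pearson's r of log2 CPM among 14142 genes with a mean over 1 CPM. The 10 highest were Npnt (0.998), Fadd (0.997), Sema3d (0.985), Aldh1a2 (0.984), Sost (0.983), Cyp26b1 (0.981), Tmem248 (0.979), Stk26 (0.977), Dpysl5 (0.974) and Prr14 (0.974). These values describe 6 hearts, with Wt1 and the other gene read from the same library in each, and no p is given. As the highest of 14142 values over 6 hearts in 2 clusters of Wt1, they are not evidence of a link with Wt1. Aldh1a2 (the retinoic acid synthesizing enzyme of the epicardium) and Sema3d were among the epicardial markers, and Npnt, a ligand of integrins, was in the podocyte list. The other epicardial markers in this ranking ran from 0.93 (Upk3b) down to −0.11 (Tcf21), with Krt8 at 0.26 and Aldh1a1 at 0.23. The markers thus did not follow Wt1 as a set. Aldh1a2 was at 60.4, 51.5 and 24.8 CPM in wild type and 22.8, 42.8 and 48.2 CPM in mutant hearts, so that its low hearts were those of Wt1. Npnt was at 83.0, 74.0 and 51.7 CPM in wild type and 47.3, 72.9 and 79.3 CPM in mutant hearts. Wt1 was low in mutant heart 1 and wild type heart 5 and between 32.9 and 40.0 CPM in the other 4 hearts. Since the hearts fell into 2 such clusters, no pooled correlation with Wt1 is given for the other 8 genes. Wild type heart 5 also stood apart in genes that mutant heart 1 did not share. It was the lowest heart for Synpo (54.5 CPM) and Lpp (40.7 CPM), where mutant heart 1 had 82.9 and 74.4 CPM. For Wtip it was the highest heart (62.8 CPM). Whether its low Wt1 was part of a wider difference of that heart was not tested.

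**Figure D5:**
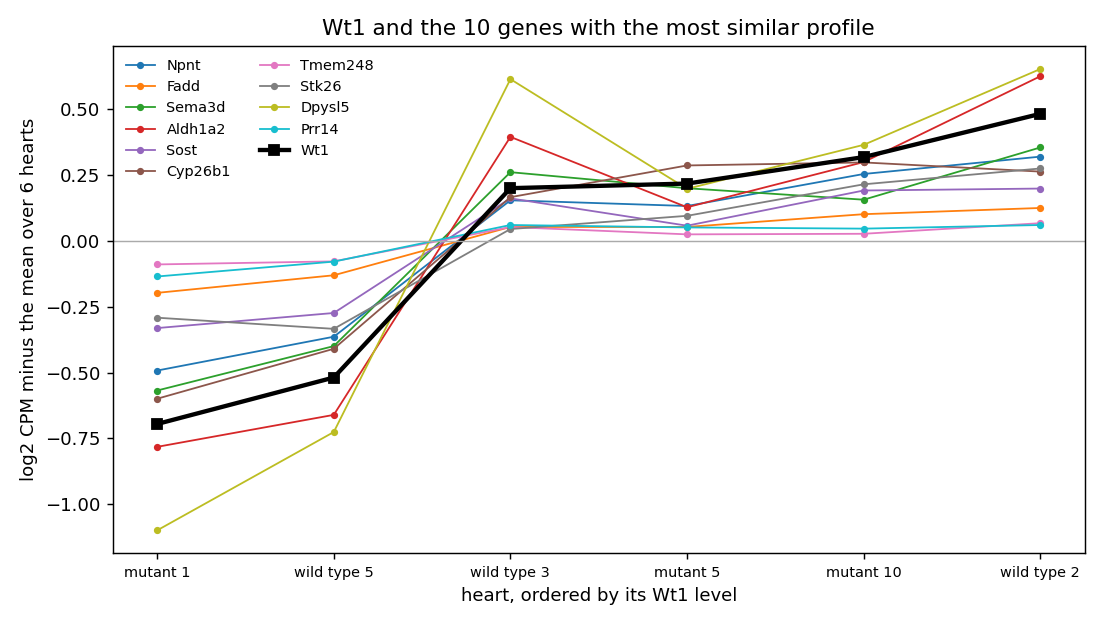
Log2 CPM of Wt1 (black) and of the 10 genes with the most similar profile (colours), each minus its mean over the 6 hearts, with the hearts ordered by their Wt1 level. Mutant heart 1 and wild type heart 5 (17.7 and 20.0 CPM of Wt1) are low for all 11 genes, and the 4 other hearts, from both groups, are high.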

How the data were processed

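Total RNA of 6 whole hearts was made into TruSeq libraries and sequenced in pairs, with no stated batch. Reads were trimmed by the authors, then mapped to mm10 with STAR and those with a unique place were given to genes with featureCounts, as the methods of the study state, whereas the submitters' processing notes name HTSeq and DESeq2. The strand setting is not given in the sources used here. The counts deposited by the authors are not normalized, and totals ranged from 44244665 to 56373393. The FPKM values deposited by the authors equal the count divided by a length per gene and the library total. A table of group mean FPKM was not used.

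Counts were tested with edgeR 4.0.16 (R 4.3.3; TMM, filterByExpr at a minimum count of 10 and minimum total of 15, quasi-likelihood, two-sided) with Benjamini-Hochberg adjustment over all genes tested and a threshold of 0.05. The standard error is the log2 fold change divided by the square root of F. Alternatives were DESeq2 1.42.0, limma 3.58.1 on log2(FPKM + 1) or log2(FPKM + 0.1), 2 other scalings, no filter on low counts, a correction of the trend with gene length (local regression, span 0.5) and each heart left out. Covariates for Wt1 and the epicardial markers, and DESeq2 with each heart left out, were added after seeing the data. The fits were tested on simulated data. Intervals are 95%. Genes that never exceeded 3 counts are named as such, a limit that covers counting error only.

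The members and gene lists were chosen with earlier results of these data known. Named are the 9 genes, their relatives, in every other list the genes with an unadjusted p under 0.05 or else the one with the smallest p, and the 10 genes most like Wt1. Of the lists of cell markers, those not described in the text gave the following at an unadjusted p under 0.05: Myl7 lower among 10 cardiomyocyte genes, Prph higher among 8 neuronal genes, Emcn higher among 8 endothelial genes and Col1a1 higher among 6 mesenchymal genes. In the hepatocyte list these were Alb, Apoa1, Apoa2 and Ttr, all lower, and in the macrophage list Csf1r, C1qa, Adgre1, Cx3cr1 and Ptprc. Over all genes tested 2.59% were lower and 3.14% higher at that threshold. The genes with the smallest p were Cyp17a1 in the gonad list and Foxa2 in the lung and foregut list. Neighbours within 100 kb were chosen after the values were seen. The values of 1 gene in these lists are not reported here.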

Additional observations from a re-analysis of the deposited data

How the results depend on the processing

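Nphs1, Kirrel2, Basp1 and Wtip were lower in the mutant under every setting tried, and 16 of 23 log2 fold changes kept their direction throughout. Several of the 23 genes, such as Tcf21 and Gas1, were followed for an unadjusted p under 0.05 in these same data. Their steady direction is therefore no separate support. On log2(FPKM + 1), which compresses low values, Nphs1 was at −0.54 and Kirrel2 at −0.61, and their ranges over all settings were −4.37 to −0.54 and −3.50 to −0.61. The number of genes called in edgeR was 0, against 132 with DESeq2, 34 without a filter, 6 with the length correction, 9 with Wt1 and 2 with the epicardial markers as covariate, and 0 to 44 with each heart left out. The 44 came without wild type heart 5. DESeq2 gave 71 to 447 with each heart left out, 447 without wild type heart 5, 71 without mutant heart 5 or 10 and 107, 95 and 143 without wild type hearts 3 and 2 and mutant heart 1. Of the 9 genes 0 were called in edgeR, 2 with DESeq2, 1 (Kirrel2, adjusted p = 0.0373) without a filter, 0 to 1 with each heart left out (the 1 without wild type heart 5) and 1 to 2 in the same fits of DESeq2. Of the relatives, other podocyte genes, other targets and partners, the lists of cell markers apart, 0 were called, with 1 (Tcf21) by DESeq2, without a filter or with Wt1 as covariate. It was 0 to 1 with each heart left out in edgeR, and 1 to 4 in DESeq2, the 4 without wild type heart 5 and 2 without mutant heart 5.

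The log2 fold changes that changed sign were small. With each heart left out of edgeR in turn, Wt1 ranged from −0.33 to 0.16, Synpo from −0.18 to 0.15, Sulf1 from −0.28 to 0.04, Kirrel3 from −0.50 to 0.25, Podxl from −0.07 to 0.36, Kirrel from −0.24 to 0.17 and Sulf2 from −0.03 to 0.21. DESeq2 turned the sign of Wt1 (0.13), Synpo (0.15) and Kirrel (0.16) without wild type heart 2, of Synpo (0.03) and Kirrel (0.0045) without wild type heart 3, and of Kirrel3 (0.24), Podxl (−0.07) and Sulf2 (−0.03) without wild type heart 5. It did so for Wt1 (0.16), Sulf1 (0.04) and Kirrel (0.02) without mutant heart 1 and for Synpo (0.09) without mutant heart 10. Kirrel3 was at 0.10 with the epicardial covariate, Synpo at 0.0040 without a filter and 0.03 with the Wt1 covariate, and Kirrel at 0.06 with the Wt1 covariate. The causes were not tested.

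No paired analysis was possible because the groups share only the replicate number 5. The planned permutation tests of the correlation of the other 8 genes with Wt1, and their alternatives, were not run, since the hearts fell into 2 clusters of Wt1. Low counts limit the precision for Nphs1, which had 14 counts or fewer in 4 hearts.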
